A study of Mus musculus with 6 samples.

Results

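The HoxB cluster is a row of 10 homeobox genes on mouse chromosome 11 (Hoxb1 to Hoxb9 and Hoxb13), and its members were taken by gene symbol. Of the 10 genes, 9 had a row in each of the 2 deposited tables, among 16821 gene symbols in the first and 15916 in the second. Hoxb1 had no row in either table, so it has no value here. Messenger RNA was sequenced from intestinal stem cells of C57BL/6 mice, sorted from small-intestinal crypts on the GFP reporter of Lgr5, 6 days after 3 tamoxifen injections. All 4 groups carried the Lgr5Gfp-CreERT2 allele, which makes a tamoxifen-activated Cre recombinase in cells that express Lgr5. The WT group (2 libraries) carried nothing else. RingKO (2 libraries) was also Ring1a-/- Ring1bf/f, Ring1a and Ring1b being the older names of Ring1 and Rnf2. The Bcat group (1 library) carried Ctnnb1-ex3, an allele of the beta-catenin gene, with the Ring genes intact, and Bcat_RingKO (1 library) carried Ctnnb1-ex3 with Ring1a-/- Ring1bf/f. The labels give no age, no number of animals per library and no description of the deleted part of Ring1b. They number the replicates but do not say that they are separate animals, so p-values reflect how far these preparations vary, and that variation may be technical.

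Hox genes encode transcription factors that bind DNA through a homeodomain and give cells their position along the body axis. Within a cluster the genes lie in the order in which they act, from Hoxb1 towards the head to Hoxb13 towards the tail. Polycomb repressive complex 1 (PRC1) holds Hox genes silent where they should be off, by compacting chromatin and placing a ubiquitin mark on histone H2A. RING1 and RNF2 are its catalytic subunits. In the gut, Hox genes are known for marking the boundaries between its segments, and Hoxb13 is a gene of the hindgut and prostate.

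The libraries held 6753789 and 6294932 (WT), 2911422 and 2651201 (RingKO), 922153 (Bcat) and 4470853 (Bcat_RingKO) reads assigned to RefSeq entries. The libraries of a genotype are called A and B, and these letters are arbitrary. Over 7939 well-covered entries, the SD of the log2 ratio between them was 0.247 for WT and 0.454 for RingKO. Ring1 went from 484 and 363 reads in WT to 9 and 11 in RingKO, with a log2 fold change of -4.12 ± 0.25 (edgeR estimate ± SE). In the Bcat pair Ring1 had 24 and 43 reads, or 26.0 and 9.62 RPM (reads scaled to a library total of 1000000), so that the library labelled Bcat_RingKO kept more of this transcript than the RingKO libraries with 3.09 and 4.15. The Rnf2 reads numbered 220 and 246 (WT), 142 and 103 (RingKO), and 78 and 546 (Bcat pair), and reads over the whole transcript do not check a deletion of part of the gene. Lgr5 itself was present in all 6 libraries, with 222 to 942 reads in the first 4 and 146 and 1505 in the Bcat pair. In what follows, "rose" or "fell" means that the authors' deposited table gives an adjusted p under 0.05. A normalized read count is the reads of a library divided by its size factor, and its SD is over 2 libraries. Fold changes with ± are edgeR estimates with SE from the reads, and over all entries tested they lie 0.17 above the deposited log2 values because of the scaling.

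In RingKO stem cells the HoxB cluster responded unevenly. Hoxb13 went from no reads to one of the most abundant members, and Hoxb6 rose 4.95-fold on the authors' deposited means. Hoxb5 and Hoxb7 stood higher and passed only the added count tests, and Hoxb2 and Hoxb8 stood at levels that overlapped with WT. By the authors' deposited table, Hoxb6 and Hoxb13, that is 2 of 9 members, rose, where 3.14% of all entries rose. None of the 9 fell, where 1.76% of all entries fell. No member was lower at an unadjusted p under 0.05 in that table either, and edgeR, DESeq2 and limma called 0 members lower. Both RingKO libraries lay above both WT libraries in 7 of 9 members, against 18% of all entries. The median deposited log2 fold change was 1.45 over the 9 members and 0.02 over all 18376 entries.

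**Figure D1:**
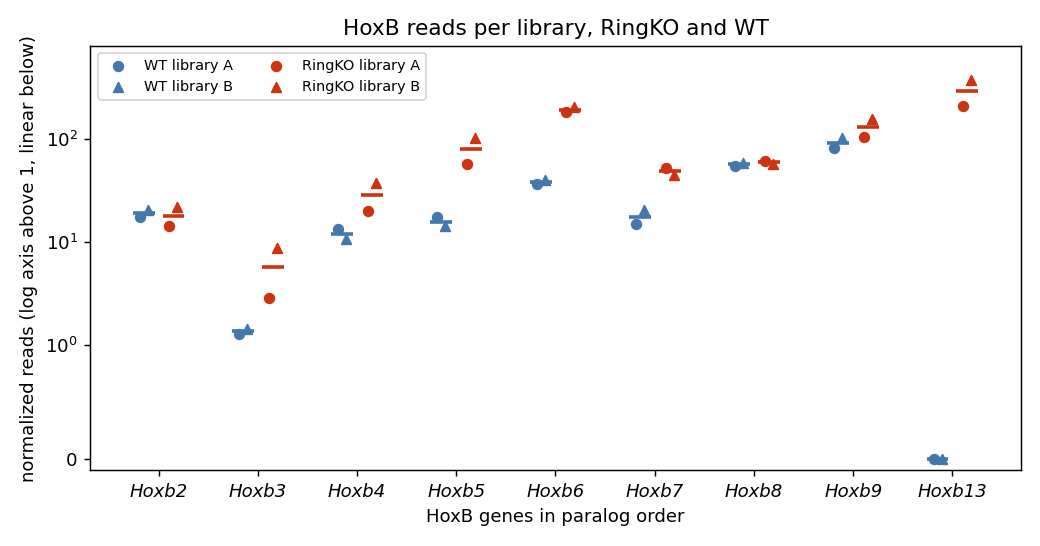
Normalized reads of the 9 measured HoxB genes (vertical axis, logarithmic above 1 and linear below) in 2 WT libraries (blue) and 2 RingKO libraries (red), in paralog order, with circles for library A, triangles for library B and bars for the means. The RingKO points lie above the WT points in 7 genes, overlap in Hoxb2 and Hoxb8, and in Hoxb13 stand at 209 and 375 against 0 and 0.

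Hoxb13, the most posterior member, is shown with its homeobox because it differed most in response and is the most divergent in sequence. The homeobox is the 180-base stretch that encodes the homeodomain, and the capitals mark codons 48 to 53, in the helix that reads the major groove of DNA. The copies of Hoxb13, Hoxb6 and Hoxb7 lie in exon 2 of 2 on the plus strand of chromosome 11 (GENCODE transcripts, GRCm38), at chr11:96196020-96196199, chr11:96300689-96300868 and chr11:96289385-96289564. The deposited tables were made on mm9, so these positions belong to the reference and not to the tables.
Hoxb13: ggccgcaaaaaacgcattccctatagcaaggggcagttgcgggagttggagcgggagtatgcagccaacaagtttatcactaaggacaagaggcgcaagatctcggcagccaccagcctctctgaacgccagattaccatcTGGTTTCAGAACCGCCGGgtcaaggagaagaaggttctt
Hoxb6: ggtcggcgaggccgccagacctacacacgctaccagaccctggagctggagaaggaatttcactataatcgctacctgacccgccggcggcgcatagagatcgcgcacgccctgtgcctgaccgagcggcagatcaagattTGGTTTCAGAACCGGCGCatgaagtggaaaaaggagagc
Hoxb7: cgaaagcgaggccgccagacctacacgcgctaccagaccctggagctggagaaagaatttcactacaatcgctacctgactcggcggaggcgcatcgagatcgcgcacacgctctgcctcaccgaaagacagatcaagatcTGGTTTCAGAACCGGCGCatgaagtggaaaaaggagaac
The Hoxb13 homeobox matched those of the other 8 measured members at 50.6% to 60% of bases, Hoxb9 being the closest. Hoxb6 and Hoxb7 were the most alike pair of the cluster, at 88.9% (160 of 180 bases). Over whole transcripts no 50-base window of Hoxb6, Hoxb7, Hoxb8 or Hoxb13 occurred in the transcript of any other gene.

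Neither WT library had a read of Hoxb13, and the RingKO libraries had 147 and 261. In normalized reads that is 0 and 0 against 209 and 375 (mean 292 ± 117 in RingKO), and the groups did not overlap. Set against a WT floor of 3 reads, counted over both libraries, the RingKO mean of Hoxb13 was 290.2 times the floor. The 95% interval of its RingKO to WT ratio, for counting error only, began at 235. The adjusted p of Hoxb13 in the authors' deposited table was 4.52e-09. The floor limits what these libraries could detect and does not show that WT cells lack the transcript. RingKO library B held 1.79 times the level of library A. Library B was the higher of these in 7 of 9 members.

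Hoxb6, from the middle of the cluster, was counted at 57 and 57 reads (WT) and 127 and 141 reads (RingKO). Normalized, that was 36.4 and 40.2 against 180 and 202, so the groups lay far apart and each was tight. The log2 fold change was 2.50 ± 0.19 with edgeR and 2.31 in the authors' deposited table, where the adjusted p was 3.85e-10. Across 10 settings of the test, including each library left out in turn, its log2 fold change stayed between 2.29 and 2.62.

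Hoxb5, the neighbour of Hoxb6, gave 27 and 20 WT reads and 40 and 71 RingKO reads. After normalization these were 17.3 and 14.1 against 56.8 and 102, without overlap but with a wide gap between the RingKO libraries. The adjusted p in the authors' deposited table was 0.0525, just short of the threshold. With edgeR the log2 fold change was 2.52 ± 0.38 (Benjamini-Hochberg adjusted p = 0.00375), and DESeq2 and limma also called Hoxb5 higher.

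Hoxb7 gave 23 and 29 WT reads and 37 and 31 RingKO reads, or 14.7 and 20.4 against 52.6 and 44.5 normalized reads. Here, unlike in Hoxb13 and Hoxb5, library A was the higher of the RingKO libraries. The adjusted p in the authors' deposited table was 0.0816. The log2 fold change with edgeR was 1.65 ± 0.32 (Benjamini-Hochberg adjusted p = 0.012), and this call was lost when either WT library was left out (adjusted p = 0.158 without WT library A and 0.0692 without B). By edgeR 4 of the 8 members that passed its filter on low counts were higher, against 9.91% of the entries it tested. DESeq2 and limma called the same 4 genes, against 6.88% and 7.58% of entries.

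Hoxb9, at the posterior end of the contiguous genes, is one of the members most expressed in WT. It gave 128 and 143 WT reads and 74 and 108 RingKO reads, or 81.8 and 101 against 105 and 155 normalized reads. The lower RingKO library thus lay only just above the higher WT library. The adjusted p of Hoxb9 in the authors' deposited table was 0.730. Its log2 fold change was 0.70 ± 0.24 with edgeR (Benjamini-Hochberg adjusted p = 0.107). Without RingKO library A the log2 fold change was 0.99, and without library B it was 0.36.

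Hoxb4, known for its part in the self-renewal of blood stem cells, gave 21 and 15 WT reads and 14 and 26 RingKO reads. The normalized reads were 13.4 and 10.6 against 19.9 and 37.3. The groups did not overlap, and the adjusted p in the authors' deposited table was 0.458. With edgeR the log2 fold change of 1.43 ± 0.44 also missed the threshold (Benjamini-Hochberg adjusted p = 0.0764). With edgeR and without RingKO library A it became 1.84 with an adjusted p of 0.00808, and without library B 0.87 with 0.356, so the call depended on which RingKO library was used.

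Hoxb8 lies between Hoxb7 and Hoxb9 and hardly differed. It gave 86 and 82 WT reads and 43 and 40 RingKO reads, which with the lower depth of RingKO came to 55.0 and 57.8 against 61.1 and 57.4 normalized reads. The groups overlapped, and the log2 fold change was 0.25 ± 0.22 with edgeR (Benjamini-Hochberg adjusted p = 0.522). The 95% counting interval of the RingKO to WT ratio ran from 0.799 to 1.38. Hoxb2, at the anterior end, gave 27 and 29 WT reads and 10 and 15 RingKO reads, or 17.3 and 20.4 against 14.2 and 21.5 normalized reads. Its counting interval was 0.569 to 1.55, and the sign of its fold change depended on the scaling (-0.02 in the authors' deposited table and 0.11 ± 0.39 with edgeR). For neither gene do these intervals show equal levels, but they lie below the interval of Hoxb6, which was 4.01 to 6.29. All of these cover counting error only.

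Hoxb3 was barely detected, with 2 and 2 WT reads and 2 and 6 RingKO reads, which edgeR's filter removed. Normalized, these were 1.28 and 1.41 against 2.84 and 8.62, and the counting interval of its ratio was 1.14 to 19.3. The antisense gene Hoxb3os shares 57.3% of the 50-base windows of the Hoxb2 transcript and 68.7% of those of Hoxb3. The use of strand in the counting is not given in the sources used here, so reads of Hoxb2 and Hoxb3 cannot be told from those of Hoxb3os. For Hoxb5 the share with its antisense gene Hoxb5os was 2.76%.

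A microRNA gene, Mir196a-1, lies between Hoxb9 and Hoxb13, and miR-196a is known to cleave Hoxb8 transcripts in the embryo. Its sequence and its site in Hoxb8 are shown because Hoxb8 was among the members that differed least. The mature RNA is at chr11:96265187-96265208, plus strand (RefSeq, GRCm38.p6), and capitals mark the seed, bases 2 to 8. Mir196a-2 on chromosome 15 gives the same mature sequence, and miR-196b from chromosome 6 has the same seed. The site was found in the Hoxb8 transcript by pairing, at chr11:96284888-96284909 (plus strand, GRCm38) in the 3′ UTR, exon 2 of 2, with the bases opposite the seed in capitals.
miR-196a-5p: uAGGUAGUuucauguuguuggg
miR-196b-5p: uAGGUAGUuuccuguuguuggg
Hoxb8 site: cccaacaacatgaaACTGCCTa
Of the 22 bases of miR-196a-5p, 21 paired with this site by Watson-Crick rules, against at most 14 at any site in the other 8 transcripts. The exact seed match ACTACCT (searched on the transcript strand) was absent from the Hoxb8 3′ UTR and occurred once each in those of Hoxb6 and Hoxb7, as in 6.32% of 21173 genes with an annotated 3′ UTR. The precursor entry Mir196a-1 gave 3 and 2 WT reads, 8 and 4 RingKO reads, and 0 and 10 in the Bcat pair (adjusted p = 0.576 in the authors' deposited table). A library of long messenger RNA does not measure the mature microRNA. These matches are descriptions of sequence, and no microRNA effect was measured.

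Promoter windows were available for 3 members (Hoxb1, Hoxb4 and Hoxb8), and in Hoxb4 and Hoxb8 their start site is that of the transcript counted here. Both are printed from 250 bases before to 50 bases after the start (RefSeq, GRCm38.p6, plus strand, chr11:96318017-96318316 and chr11:96281655-96281954), with each CG dinucleotide in capitals, since CG-rich promoters are where Polycomb complexes are known to settle.
Hoxb4 promoter: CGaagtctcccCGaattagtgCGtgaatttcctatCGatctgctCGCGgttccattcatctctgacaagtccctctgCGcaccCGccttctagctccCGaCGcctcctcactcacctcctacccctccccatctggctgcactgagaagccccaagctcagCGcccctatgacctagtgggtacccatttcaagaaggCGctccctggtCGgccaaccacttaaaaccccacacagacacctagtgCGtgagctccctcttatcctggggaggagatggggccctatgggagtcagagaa
Hoxb8 promoter: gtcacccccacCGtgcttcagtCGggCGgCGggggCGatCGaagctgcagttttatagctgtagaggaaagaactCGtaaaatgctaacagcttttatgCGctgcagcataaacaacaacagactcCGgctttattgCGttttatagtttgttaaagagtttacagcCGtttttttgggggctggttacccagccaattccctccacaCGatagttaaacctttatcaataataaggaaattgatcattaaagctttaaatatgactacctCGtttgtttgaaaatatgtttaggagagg
The Hoxb4 window held 14 CG dinucleotides and that of Hoxb8 held 13, against a median of 7 over 32851 promoters, although the Hoxb8 window was only 42.3% G and C. Fewer were found in 63.7% of promoters than in the Hoxb4 window, and in 62.1% than in the Hoxb8 window. The motif TTTATG, searched on both strands as a core bound by the gut homeodomain factors CDX1 and CDX2, was in the Hoxb8 window and in 11.9% of all promoters. CTTTGA, searched likewise as a core of the Wnt effectors TCF and LEF, was in none of the 3 windows and in 16% of all promoters.

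To rank the members, reads were taken as RPKM, the RPM per kb of transcript over the entries in both tables, so these values are levels. In WT the order was Hoxb9 (8.10 ± 1.03), Hoxb6 (6.63 ± 0.33), Hoxb8 (4.89 ± 0.08), Hoxb7 (3.10 ± 0.66), Hoxb2 (2.64 ± 0.26), Hoxb5 (1.89 ± 0.31), Hoxb4 (1.07 ± 0.20), Hoxb3 (0.096 ± 0.005) and Hoxb13 at 0. Hoxb7 and Hoxb2 were the only neighbours in that order whose libraries overlapped. In RingKO, Hoxb6 led with 36.7 ± 5.1, followed by Hoxb13 (33.8 ± 15.4), Hoxb9 (12.9 ± 4.2), Hoxb5 (10.7 ± 4.9) and Hoxb7 (9.46 ± 0.55). Below them stood Hoxb8 (5.67 ± 0.09), Hoxb4 (2.85 ± 1.38), Hoxb2 (2.80 ± 0.97) and Hoxb3 (0.463 ± 0.350). The RingKO libraries of Hoxb6 and Hoxb13 overlapped, as did those of Hoxb9 and Hoxb5, Hoxb5 and Hoxb7, and Hoxb4 and Hoxb2. Hoxb8, rank 3 in WT, was thus rank 6 in RingKO, although its own level overlapped with WT in normalized reads.

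**Figure D2:**
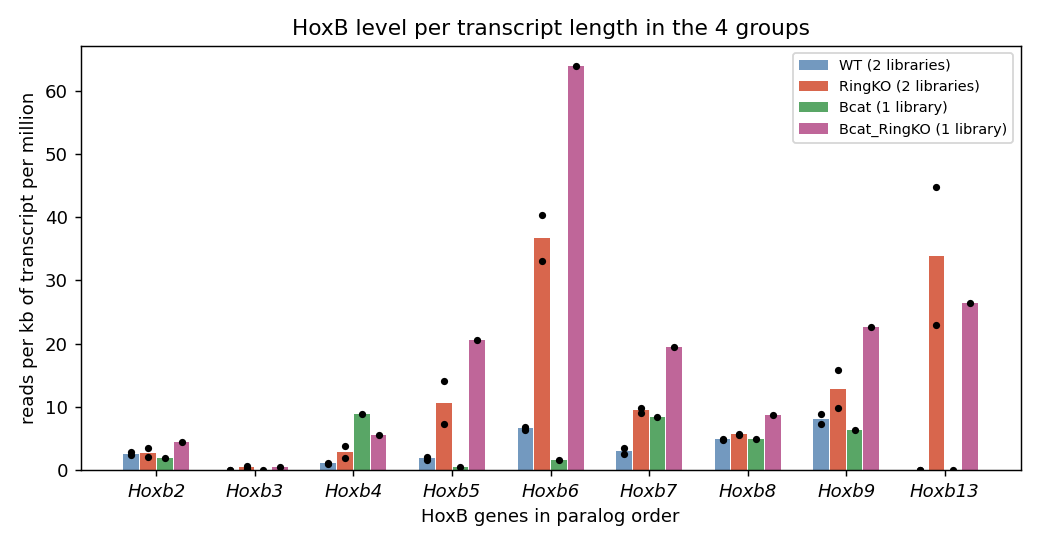
RPKM, the reads per kb of transcript scaled to a common library total (vertical axis), of the 9 measured HoxB genes in WT, RingKO, Bcat and Bcat_RingKO, with bars for group means and points for libraries. Hoxb6 is the tallest bar in RingKO and Bcat_RingKO (36.7 and 63.9), Hoxb13 is at 0 in WT and Bcat, and Hoxb4 is taller in Bcat (8.88) than in Bcat_RingKO (5.49).

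The second comparison set Bcat_RingKO against Bcat, the same Ring alleles on a background with an altered beta-catenin gene, with 1 library each and so no replicate check. Ratios are of deposited normalized values, which hold 1 added read, or of the reads themselves with a 95% interval of the counts (exact, Clopper-Pearson, conditional on their sum) for counting error only. Of the 9 members, 3 (Hoxb5, Hoxb6 and Hoxb13) were at least 4-fold higher with at least 10 reads in 1 library, where 10.6% of the 11863 entries with that many reads were. These 3 reached 10 reads only in Bcat_RingKO, the library in which they are high. Because that library was also the deeper one, the rule admits higher entries more readily than lower ones. No member was 4-fold lower, where 1.69% of the 11863 entries were. Hoxb2, Hoxb3, Hoxb5, Hoxb6 and Hoxb13 had only 3, 0, 1, 2 and 0 reads in Bcat. With so few they could not be 4-fold lower and still reach 10 reads, so the absence of lower calls says nothing of them. The median deposited log2 ratio was 1.04 over the members and 0.39 over the 11863 entries. The 9 members include Hoxb3, whose 0 and 8 reads fall short of the 10 reads that those entries had.

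Hoxb13 had 0 reads in Bcat and 260 in Bcat_RingKO, which is at least 17.3-fold higher than 3 reads, the floor of the shallow Bcat library. Hoxb6 went from 2 to 377 reads, a ratio of 37.7 (10.4 to 312), and Hoxb5 from 1 to 174 reads, a ratio of 34.8 (6.16 to 1382). These intervals are wide because the Bcat library held so few reads of each gene. Below 4-fold, Hoxb9 had 15 and 261 reads with a ratio of 3.48 (2.07 to 6.31), and Hoxb7 had 10 and 112 with 2.24 (1.17 to 4.80). The intervals of Hoxb8 (12 and 102 reads, 0.932 to 3.40) and Hoxb2 (3 and 33 reads, 0.690 to 11.2) held 1, and Hoxb3 with 0 and 8 reads was below the floor. Hoxb4 was the only member lower in Bcat_RingKO, with 21 and 63 reads and a ratio of 0.600 (0.361 to 1.04). Scaling by trimmed means (TMM) lowered every log2 ratio in this pair by 0.22, which brought Hoxb4 to 0.517 (0.311 to 0.892), below 1.

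The levels per kb of the members fell in the same order in Bcat_RingKO as in RingKO, for 9 of 9 ranks. Hoxb6 led with 63.9, followed by Hoxb13 (26.4), Hoxb9 (22.7), Hoxb5 (20.5) and Hoxb7 (19.4). Hoxb8 (8.66), Hoxb4 (5.49), Hoxb2 (4.54) and Hoxb3 (0.561) came after them. In Bcat, by contrast, Hoxb4 (8.88), Hoxb7 (8.40) and Hoxb9 (6.32) were at the top, and Hoxb6 (1.64) and Hoxb5 (0.572) stood below Hoxb8 (4.94) and Hoxb2 (1.999). Hoxb4 is thus the gene whose place differs most between the control groups, at rank 7 in WT and rank 1 in Bcat. The tables were normalized separately and Bcat is 1 library, so no difference between WT and Bcat was tested.

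Most genes beside the cluster, like most HoxB members, did not pass the authors' deposited test. Of the 13 flanking genes measured in WT and RingKO, 1 rose and 1 fell, where 3.14% of all entries rose and 1.76% fell. The median log2 fold change of the flanking genes was 0.12. Gip, the gene of an incretin hormone of the upper small intestine, fell from 1147 and 952 reads to 70 and 51 (log2 fold change -2.84 ± 0.18 with edgeR, adjusted p = 5.39e-29 in the authors' deposited table). Igf2bp1, an RNA-binding protein gene of fetal tissues, rose from 1 and 5 reads to 158 and 159 (log2 fold change 6.91 ± 0.37 with edgeR, adjusted p = 4.07e-41 in the authors' deposited table), and from 1 to 433 in the Bcat pair. By edgeR 3 of the 10 flanking genes it tested were higher (Igf2bp1, Ttll6 and Copz2) and 1 lower, where 9.91% of all entries it tested were higher. Ttll6, the neighbour of Hoxb13 outside the cluster, and Copz2, on the other side, are named after their values were seen. Ttll6 gave 5 and 2 WT reads and 14 and 30 RingKO reads, and 0 and 44 in the Bcat pair. Its adjusted p was 0.0563 in the authors' deposited table and 0.00519 with edgeR and Benjamini-Hochberg adjustment. Copz2, a gene of the vesicle coat, gave 50 and 50 WT reads and 45 and 88 RingKO reads (adjusted p = 0.409 by the authors, 0.017 with edgeR and Benjamini-Hochberg adjustment), with a ratio of 1.10 between Bcat_RingKO and Bcat. Gm53, a noncoding gene between Hoxb13 and Hoxb9 named in the same way, gave 62 and 55 WT reads and 39 and 61 RingKO reads (adjusted p = 0.418 in the authors' deposited table).

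**Figure D3:**
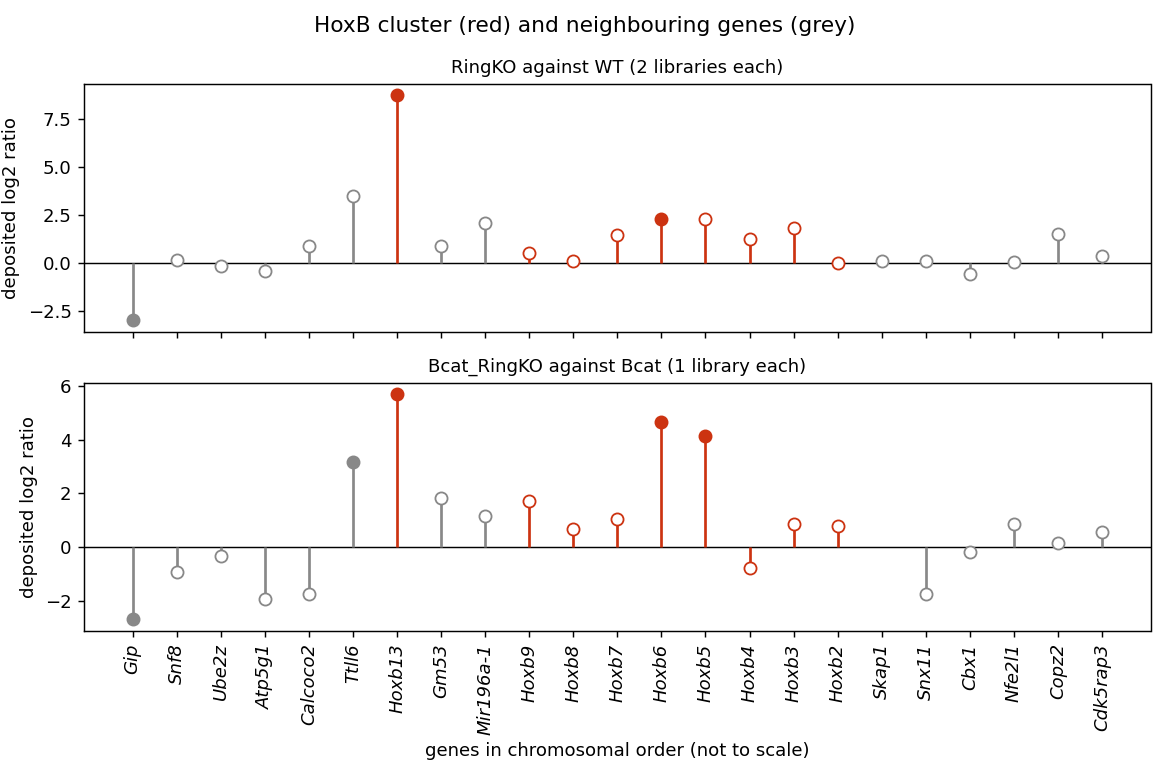
Deposited log2 ratios (vertical axes) of HoxB genes (red) and neighbouring genes (grey) in chromosomal order, for RingKO against WT above and Bcat_RingKO against Bcat below, where filled points mark an adjusted p under 0.05 above and at least 4-fold below. Hoxb13 and Hoxb6 are filled in both panels and Hoxb5 in the lower one, while Hoxb9, Hoxb8 and Hoxb7, which lie between Hoxb13 and Hoxb6, are open in both. Of the grey genes, Gip (lower) is filled in both panels and Ttll6 (higher) in the lower one. Igf2bp1, the flanking gene that rose, is not drawn. Values of genes without control reads depend on the 1 added read.

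HoxB supplied most Hox reads in the WT and Bcat libraries and a minority in the RingKO and Bcat_RingKO libraries. In WT, 371 of 410 and 377 of 426 reads of the 4 Hox clusters came from HoxB, or 90.5% (95% exact interval 87.2 to 93.1) and 88.5% (85.1 to 91.4). In RingKO the share was 36.7% (34.1 to 39.3) and 43.0% (40.5 to 45.4). In Bcat it was 85.3% of 75 reads (75.3 to 92.4), and in Bcat_RingKO 35.9% (34.4 to 37.4). The libraries with and without the Ring1a-/- Ring1bf/f alleles did not overlap in either table, although 2 libraries against 2 cannot give an exact permutation p below 0.333.

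The HoxB sum itself was higher in RingKO. It was 55.0 and 59.9 RPM in WT and 170 and 264 in RingKO, which is 3.78-fold on the means, and 69.4 against 311 in the Bcat pair, which is 4.48-fold. Without Hoxb13 the fold was 2.48 in RingKO and 3.64 in the Bcat pair, and without both Hoxb13 and Hoxb6 it was 1.93 and 2.50. In the other clusters the sum went from 5.86 to 130 RPM for HoxA (22.1-fold) and from 0.921 to 127 for HoxD (137-fold, from 6 reads in each WT library). HoxC had no WT reads, and its RingKO mean was 285 times the same WT floor of 3 reads. By the authors' deposited table, 8 of 11 HoxA, 5 of 9 HoxC and 7 of 8 HoxD genes rose, and none fell. Of all entries 3.14% rose and 1.76% fell. With genes that had no WT reads set at their floor, the median log2 fold changes were 4.03, 4.32 and 5.18, beside 1.45 in HoxB.

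**Figure D4:**
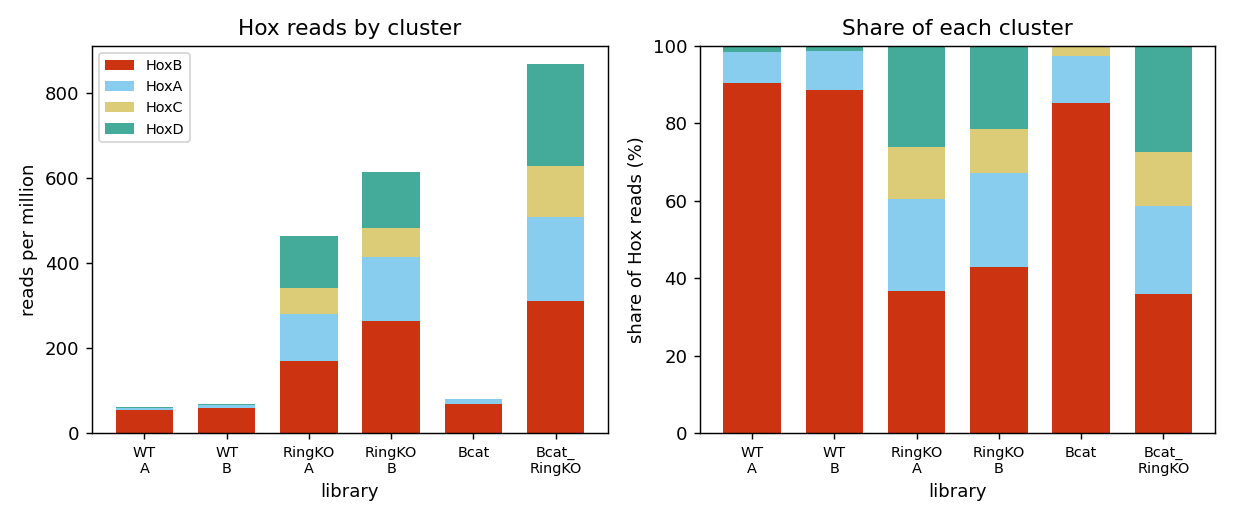
RPM of the 4 Hox clusters (left, stacked bars) and the share of each cluster in all Hox reads in percent (right), for each of the 6 libraries. HoxB (red) is 85.3% to 90.5% of Hox reads in the WT and Bcat libraries and 35.9% to 43.0% in the 3 RingKO and Bcat_RingKO libraries, where the total is higher.

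The paralogs of Hoxb13, which share its position in their own clusters, were also without reads in WT. Hoxa13 had 17 and 14 reads in RingKO and rose to a mean of 22.01 times the WT floor (adjusted p = 0.000229 in the authors' deposited table). The counting interval of its ratio began at 16.9. Hoxd13 had 90 and 52 reads and rose to a mean of 100.7 times that floor (adjusted p = 7.04e-08 in the authors' deposited table). The counting interval of its ratio began at 81.0. In the Bcat pair Hoxd13 had 0 and 214 reads. Hoxc13 had only 2 and 3 reads and did not pass (adjusted p = 0.755 in the authors' deposited table).

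Outside the Hox genes, the profiles nearest to Hoxb13 were those of Barx1, Esx1, Sim2, Sox3 and Dmrta2, all genes of developmental transcription factors. Nearness was the Euclidean distance of log2(RPM + 1) over the 6 libraries, from 0.62 for Barx1 to 1.43 for Dmrta2. Barx1 gave 2 and 1 WT reads, 165 and 200 RingKO reads, and 0 and 294 in the Bcat pair. Hoxb13 had 0 and 0, 147 and 261, and 0 and 260. All 5 were at 0 reads in Bcat, and the 6 libraries share their genotype contrast, so the likeness is a description.

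Partners and regulators of Hox proteins were counted in the same way. Of 6 cofactor genes (PBX, MEIS and PREP families, which bind DNA with Hox proteins) none rose or fell in the authors' deposited table. Among them 0 reached an unadjusted p under 0.05 there, and edgeR called 0 of the 4 it tested. Of 11 trithorax and H3K27 demethylase genes, whose products oppose Polycomb silencing, 0 rose or fell in that table, 0 had an unadjusted p under 0.05, and edgeR called 0. Of the 13 upstream regulators reported here 3 rose and 1 fell, with a median log2 fold change of 0.59, where 3.14% of all entries rose and 1.76% fell. In the Bcat pair 3 of the 13 regulators, none of the 6 cofactors and 3 of the 11 trithorax and demethylase genes were at least 4-fold higher, where 10.6% of entries were. At least 4-fold lower were 1 of the 13 regulators and none of the cofactor, trithorax and demethylase genes, where 1.69% of entries were. The 3 higher trithorax and demethylase genes were Kmt2b (4.46), Kmt2d (4.40) and Kdm6b (4.03). Under TMM scaling their ratios were 3.84, 3.79 and 3.47, short of 4. Over all 11 trithorax and demethylase genes the median deposited log2 ratio in this pair was 0.997, near the 1.04 of the HoxB members. In RingKO against WT the median of these 11 genes was -0.22.

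Among those regulators, 2 of the 3 retinoic acid receptor genes rose from low levels, Rarb from 6 and 6 reads to 21 and 14 (adjusted p = 0.0327) and Rarg from 0 and 0 to 11 and 10 (adjusted p = 0.00864), both in the authors' deposited table. Gdf11, a growth factor gene that sets posterior Hox expression in the embryo, rose from 2 and 6 reads to 14 and 15 (adjusted p = 0.0407 there). Cdx1, a gut homeobox gene known to activate Hox genes, fell from 4822 and 4229 reads to 1208 and 1417. Its log2 fold change was -0.69, with an adjusted p of 0.00893, by the authors' deposited table and -0.51 with edgeR, which did not call it (Benjamini-Hochberg adjusted p = 0.0873).

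Other cell types carry Hox transcripts, so their markers were examined beside the HoxB values. Of 13 mesenchyme markers none rose and 1, Vim, fell, and their summed level was 40.5 to 44.9 RPM in WT and 20.4 to 22.7 in RingKO. Vim alone made up 36.2 and 35.1 of it in WT and 10.7 and 10.2 in RingKO, and the sum without Vim turned, from 8.74 and 5.40 in WT to 12.03 and 10.2 in RingKO. Col6a1, Col6a2, Dcn and Lum were at or near 0 in all 4 libraries, with 0 to 2 reads in WT and 0 in RingKO. Col1a1 went from 18 and 5 reads to 13 and 10, which normalized is higher in both RingKO libraries (adjusted p = 0.771 in the authors' deposited table), and Col1a2 from 14 and 7 to 3 and 2. Foxf1 went from 0 and 0 to 7 and 8 reads (adjusted p = 0.0656 in the deposited table of the authors, 0.0064 with edgeR and Benjamini-Hochberg adjustment). In the Bcat pair the mesenchyme sum was 132 in Bcat and 151 in Bcat_RingKO. Reads of Col1a2 (25 and 0), Col3a1 (9 and 1), Col6a1 (7 and 0) and Col6a2 (4 and 0) lay mostly in Bcat, the library in which Hoxb4 was high. Other markers went the other way. Vim (60 and 608 reads), Foxf1 (0 and 36, deposited ratio 7.4) and Thy1 (2 and 16) were higher in Bcat_RingKO after normalization. Without Vim the sum in this pair was 67.3 in Bcat and 14.5 in Bcat_RingKO. The part of mesenchymal transcripts in the HoxB levels was not tested.

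None of 11 immune, 5 endothelial and 7 enteric neuron and glia markers rose or fell in the authors' deposited table. None had an unadjusted p under 0.05 there, and edgeR called 0 of the 4, 1 and 2 that it tested. Their summed levels were 37.4 to 39.7, 2.07 to 2.22 and 6.96 to 11.8 RPM in WT, and 39.9 to 50.6, 3.78 to 6.04 and 9.28 to 11.7 in RingKO. Of 6 colon epithelium markers none rose and Slc26a3 fell in that table. With edgeR Car4 was also called higher (154 and 108 WT reads, 125 and 83 RingKO reads, Benjamini-Hochberg adjusted p = 0.0339). The sum of these markers was 75.8 to 86.2 in WT and 90.3 to 91.1 in RingKO. Of 12 stem cell and epithelial markers none rose and 3 fell (Ascl2, Rgmb and Msi1), where 1.76% of all entries fell. Among them 6 had an unadjusted p under 0.05 in the authors' deposited table, all lower. Their median log2 fold change was -0.44, against -0.18 in the 10957 entries that averaged 10 normalized reads or more. Their sum was 10490 and 11543 RPM in WT and 9698 and 6556 in RingKO libraries A and B. Olfm4 made up 4459 and 5305 of it in WT and 3272 and 1184 in RingKO. In normalized reads, Sox9 alone lay higher in both RingKO libraries. In bulk RNA, fewer cells that make a transcript and less of it per cell cannot be told apart, and a rise in a HoxB gene may likewise lie in few or many of the sorted cells.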

How the data were processed

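Libraries of messenger RNA were made with the TruSeq RNA Sample Preparation Kit v2, per the labels' protocols. TopHat, DESeq and the build mm9 come from the submitters' processing notes. No source used here gives the read counter, its annotation, its strand setting or the tool versions. The authors deposited, per RefSeq entry, normalized signal as group means for WT and RingKO (18376 entries) and per library for the Bcat pair (17076 entries). From the values, this signal is the reads plus 1, divided by a size factor. The authors deposited the fold (ratio), its log2 value and a p-value column for both tables, and adjusted p-values for the first. The p-values of the second, which has 1 library per group, were not used here. The 2 tables were normalized separately, so tests stayed within the first table. Levels across tables are RPM, reads scaled to a common total over the 16387 entries in both.

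Reads of single libraries were recovered from the group means as whole numbers (1 solution for 18357 WT and 18375 RingKO entries, the others at means of 10922.2 or more). For Bcat and Bcat_RingKO, 100% of values gave whole reads within 0.001. Which library is replicate 1 or 2 cannot be told. The size factors were 1.56 and 1.42 (WT), 0.704 and 0.696 (RingKO), 0.447 (Bcat) and 2.24 (Bcat_RingKO). Depth per library ranged from 922153 to 6753789 reads, so 3 reads over the group, the floor used, are 1.01 normalized reads in WT and 6.71 in Bcat.

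The main call was the authors' deposited adjusted p under 0.05, with 1 RefSeq row per symbol, that with the highest mean. Fold changes with SE and the added calls came from edgeR 4.0.16 (quasi-likelihood test, TMM, filterByExpr, Benjamini-Hochberg adjustment), with DESeq2 1.42.0 and limma 3.58.1 (pseudocount 1) as alternatives, in R 4.3.3. The fits were tested on simulated data. No test was run here for the Bcat pair. Gene order came from RefSeq and transcripts from GENCODE, both on GRCm38. Intervals are exact and cover counting error only, since reads without molecular identifiers are not independent molecules.

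The members and gene lists were chosen with earlier results of these data known. All members are named, and other genes are the paralogs of the member with the highest RingKO level (in normalized reads, Hoxb13), called genes of the flanking, cofactor, regulator and trithorax lists, Ring1, Rnf2 and the 5 non-Hox entries nearest to Hoxb13. Other named genes are cell type markers or are marked in the text as picked by their values. One gene of the regulator list is not reported here.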

Additional observations from a re-analysis of the deposited data

Results flagged for a closer look

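Hoxb4 differed in direction between the 2 comparisons. Both RingKO libraries (19.9 and 37.3 normalized reads) lay above both WT libraries (13.4 and 10.6), while the deposited ratio of Bcat_RingKO to Bcat was 0.582. The difference between these contrasts was not tested, and the Bcat pair has 1 library each with 21 and 63 reads of Hoxb4.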

How the results depend on the processing

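The count of 2 higher HoxB members in RingKO became 4 (Hoxb5 and Hoxb7 added) with edgeR and filterByExpr, edgeR without a filter, edgeR with DESeq2 size factors, DESeq2 and limma. It was 2 at an adjusted p under 0.01 and with the lowest RefSeq row of each symbol. With each library left out in turn, edgeR called 3 to 6 members: 3 without either WT library (Hoxb7 lost), 4 without RingKO library B, and 6 without RingKO library A (Hoxb4 and Hoxb9 added), each with a lone library assumed to vary like the other genotype. The count of lower members was 0 under every alternative run. The median log2 fold change of 1.45 became 0.98 with a pseudocount of 5 and ranged from 1.08 to 1.70 with libraries left out. The 3 members past 4-fold in the Bcat pair became 5 (Hoxb7 and Hoxb9 added) at 2-fold and stayed 3 under the other alternatives. The median log2 ratio there, 1.04, became 0.82 under TMM. The sign of Hoxb2 turned, from -0.02 to 0.11 with edgeR, 0.074 without a filter, 0.094 with DESeq2 size factors, 0.10 with DESeq2, and from -0.25 to 0.42 with libraries left out, always short of the threshold. Where no cause is named, the cause was not tested. Of 74 values of single members under alternatives, 50 kept direction and call, 18 passed the threshold where the deposited test did not, and 6 (all Hoxb2) reversed. The Bcat library of 922153 reads, with 1 and 2 reads of Hoxb5 and Hoxb6, limits their ratios to wide intervals. No paired analysis was possible because the first table holds group means, and nothing ties a recovered library to a replicate number.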
